A study of Nannochloropsis oceanica with 15 samples.

Results

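The expression of 10 annotated genes of triacylglycerol assembly was followed through phosphate deprivation in Nannochloropsis oceanica, a unicellular marine microalga that stores oil. The deposited table of 10434 genes held 13 whose Swiss-Prot or KEGG annotation named a diacylglycerol acyltransferase, and the 10 with the highest total count over all libraries were taken. Each library came from strain IMET1 grown under continuous light in seawater-based f/2 medium, washed in seawater and moved to the same medium lacking phosphate. There were 3 libraries (replicates a, b and c) at each of 0, 6, 12, 24 and 48 h, 15 in all, and every one, 0 h included, carries the label of phosphate deprivation. The titles of the 0 h libraries lack the P of the later ones, so 0 h was read as the start of deprivation. The protocol also describes cultures in complete medium, but no library analysed here is labelled as one, so deprivation, time since transfer and handling cannot be told apart. The labels speak of triplicate cultures without saying whether a letter marks the same culture at each time, so p-values measure the spread between these libraries, which may be technical. Total counts were 16649421 to 26349336 per library. In bulk RNA of this kind, fewer cells expressing a gene and less RNA per cell cannot be told apart.

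Diacylglycerol acyltransferases attach the last fatty acid to diacylglycerol and so complete triacylglycerol, the storage oil of algae and plants. The DGAT1 and DGAT2 families take that fatty acid from acyl-CoA and are unrelated in sequence, while phospholipid:diacylglycerol acyltransferase (PDAT) takes it from a membrane phospholipid. Diacylglycerol also feeds galactolipids, sulfolipid and phospholipids, so these enzymes stand where storage and membrane lipids part. Microalgae of this genus carry many DGAT2 genes and accumulate triacylglycerol when nutrients run short.

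By annotation, 8 of the 10 genes were of the DGAT2 type, 1 was of the DGAT1 type and 1 was a PDAT. All 8 DGAT2-type genes carried the Pfam diacylglycerol acyltransferase domain, and KEGG named 6 of them 2-acylglycerol O-acyltransferase 2, a related enzyme of the same family. NO01G00990 carried Armadillo repeats as well. NO07G01500 carried an N2227-like domain as well, and KEGG named it carnosine N-methyltransferase, so its annotations disagree. The DGAT1-type gene NO19G00260 carried a membrane-bound O-acyltransferase domain, an acyl-CoA binding domain and a PH domain. NO13G01310, the PDAT, carried a lecithin:cholesterol acyltransferase domain, a ZZ zinc finger and F-box motifs, and KEGG named it a PDAT, so by annotation it does not depend on acyl-CoA. These are homology annotations and do not show activity in this species. Neither positions on chromosomes nor a genome build came with the sources used here, so none are stated.

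Levels are normalised counts in CPM (counts scaled to the library total, corrected by TMM), listed for replicates a, b and c in that order, and as the mean ± SD with n = 3. Differences between times are log2 fold changes ± SE from edgeR's quasi-likelihood test over all 15 libraries, so the SE reflects the spread of the gene at every time. A gene rose or fell where the p adjusted by Benjamini-Hochberg over the 9321 tested genes was under 0.05. Over the 5 times, 8 of the 10 genes differed, against 76.0% of all tested genes, a share close to that of the transcriptome as a whole. NO07G01500 (edgeR adjusted p = 0.33) and NO01G04220 (edgeR adjusted p = 0.11) did not pass that overall test.

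**Figure D1:**
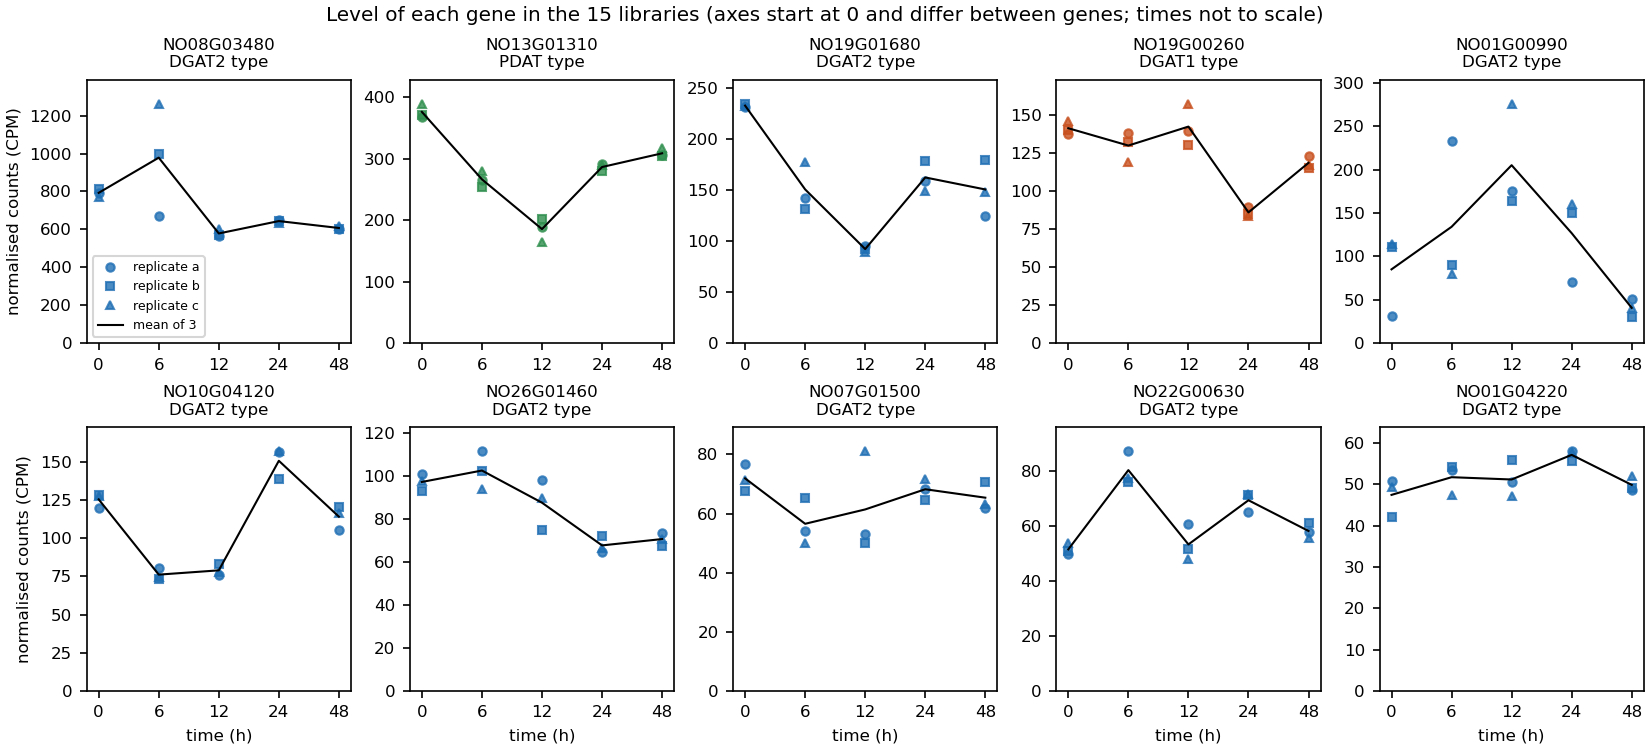
Normalised counts (CPM, vertical axis from 0, a different scale for each gene) of the 10 genes in each library by time (h, not to scale); symbols are replicates a, b and c and the line is their mean. NO19G01680 and NO13G01310 dip at 12 h, NO19G00260 dips at 24 h, and the replicates of NO01G00990 lie far apart at 0, 6, 12 and 24 h.

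NO19G00260, the DGAT1-type gene, was called in no comparison among 0, 6 and 12 h and then fell. It stood at 137, 139.9 and 146 CPM at 0 h, at 138, 132 and 119 CPM at 6 h, and at 139, 130.0 and 157 CPM at 12 h. The libraries of these times overlapped, and the difference between 12 h and 0 h was 0.01 ± 0.08 on the log2 scale (edgeR adjusted p = 0.91). By 24 h the values were 89.6, 84.7 and 83.4 CPM, below every library of the other times. It fell by 0.72 ± 0.08 on the log2 scale against 0 h (edgeR adjusted p = 1.3e-05) and by 0.60 ± 0.08 against 6 h (edgeR adjusted p = 7.1e-05). At 48 h the values of 123, 115 and 117 CPM lay above those of 24 h, a rise of 0.46 ± 0.08 (edgeR adjusted p = 0.0012). Against 0 h the log2 fold change was -0.25 ± 0.08 (edgeR adjusted p = 0.015), a call that ended without replicate c of 0 h (adjusted p = 0.053).

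NO19G01680, a DGAT2-type gene, showed the deepest fall of the 10 at 12 h. Its 0 h libraries were nearly level at 231, 234 and 232 CPM. At 6 h it stood at 143, 131 and 178 CPM and at 12 h at 94.7, 92.5 and 89.2 CPM, so the libraries of 0, 6 and 12 h formed 3 steps without overlap. The level fell by 0.63 ± 0.13 at 6 h (edgeR adjusted p = 0.0016) and by 1.34 ± 0.13 at 12 h (edgeR adjusted p = 2.3e-06) on the log2 scale, both against 0 h. It had returned by 24 h to 159, 178 and 149 CPM, a rise of 0.82 ± 0.13 over 12 h (edgeR adjusted p = 2.3e-04). The 48 h libraries gave 125, 179 and 148 CPM, and both late times overlapped 6 h and stayed below every 0 h library. Relative to 0 h, the log2 fold change was -0.52 ± 0.13 at 24 h (edgeR adjusted p = 0.0064) and -0.63 ± 0.13 at 48 h (edgeR adjusted p = 0.0018).

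The count and the FPKM (fragments scaled to transcript length and library depth, calculated by the authors) of NO19G01680 did not keep a fixed ratio. Corrected for depth, its count per FPKM was 0.806 to 1.16 times the gene's median, a 1.44-fold range, so no single fixed length underlay its FPKM. It was 1.00 in all 3 libraries of 0 h and lay furthest from it at 6 h and 48 h. In FPKM the gene gave 73.3, 73.3 and 72.8 at 0 h, then 34.5, 33.5 and 26.9 at 12 h, and finally 34.4, 70.8 and 59.9 in the 48 h libraries. Tested with limma on log2(FPKM + 0.1), the fall at 12 h remained called, while the log2 fold changes against 0 h were -0.37 at 6 h (adjusted p = 0.20), -0.38 at 24 h (adjusted p = 0.20) and -0.47 at 48 h (adjusted p = 0.10). On that scale the median of all tested genes was itself 0.15 at 6 h. With the median of each library subtracted, a step chosen after the data were seen, NO19G01680 was called at 6 h (-0.61, adjusted p = 0.028) and 48 h (-0.58, adjusted p = 0.036) and missed the threshold at 24 h (-0.52, adjusted p = 0.061).

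**Figure D2:**
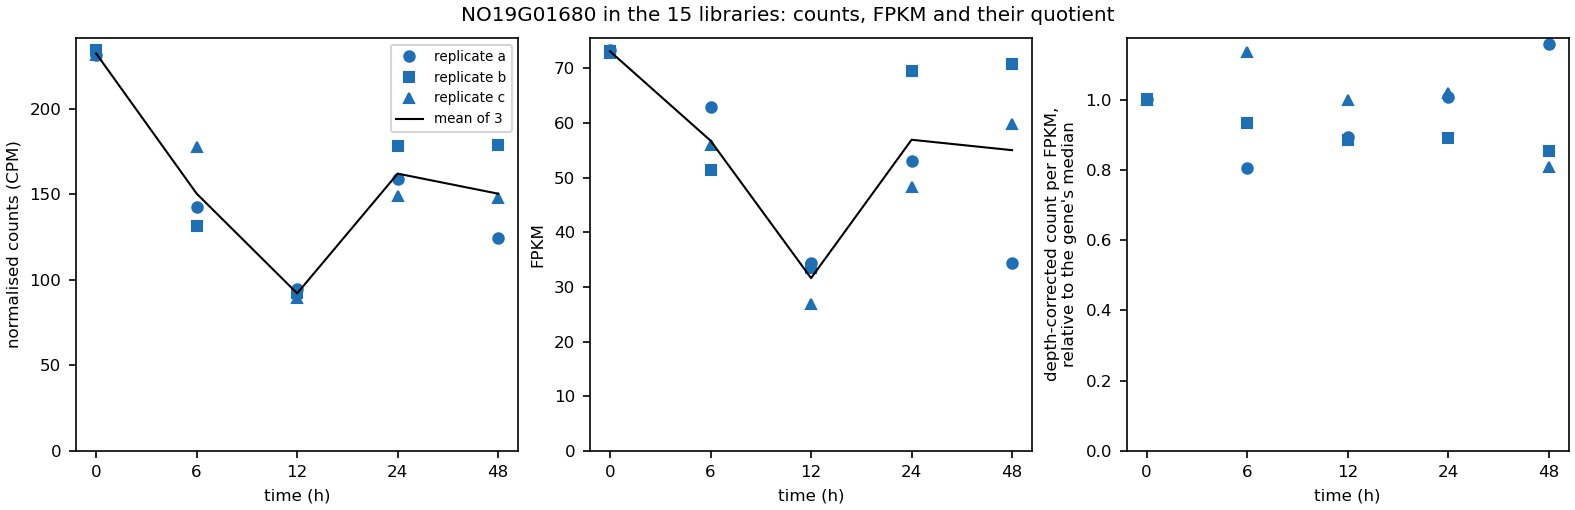
NO19G01680 in the 15 libraries by time (h, not to scale): normalised counts (CPM), FPKM, and the depth-corrected count per FPKM relative to the gene's median, all axes from 0; symbols are replicates and lines are means of 3. Counts and FPKM are both lowest at 12 h, and the quotient spreads from 0.806 to 1.16 after 0 h.

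NO10G04120, a DGAT2-type gene, was low at the 2 early times and high at 24 h. It stood at 120.2, 129 and 128 CPM at 0 h and at 80.3, 73.5 and 74.9 CPM at 6 h. At 12 h the values of 76.1, 83.2 and 77.7 CPM overlapped those of 6 h. It fell by 0.72 ± 0.07 at 6 h (edgeR adjusted p = 3.9e-06) and by 0.67 ± 0.07 at 12 h (edgeR adjusted p = 3.6e-06) on the log2 scale, against 0 h. The 24 h libraries reached 156, 139 and 157 CPM, above every library of the other times. That was a rise of 0.26 ± 0.07 over 0 h (edgeR adjusted p = 0.0080) and of 0.93 ± 0.07 over 12 h (edgeR adjusted p = 7.1e-07). At 48 h it stood at 105, 121 and 117 CPM, a fall of 0.40 ± 0.07 from 24 h (edgeR adjusted p = 0.0018), and its log2 fold change against 0 h was -0.14 ± 0.07 (edgeR adjusted p = 0.13).

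NO08G03480, the DGAT2-type gene with the most counts, differed widely between libraries at 6 h and was lower from 12 h on than at 6 h. It stood at 792, 814 and 772 CPM at 0 h. At 6 h the libraries gave 672, 999 and 1263 CPM, on both sides of 0 h (log2 fold change 0.30 ± 0.16, edgeR adjusted p = 0.14). Without replicate a of 6 h that value was 0.51 (adjusted p = 3.8e-04), and without replicate c it was 0.07 (adjusted p = 0.70), so single libraries decided it. From 12 h on the libraries were tight, at 563, 569 and 604 CPM at 12 h, 652, 646 and 634 CPM at 24 h, and 603, 604 and 616 CPM at 48 h. All 9 of these lay below every library of 0 and 6 h. The log2 fold change against 0 h was -0.45 ± 0.16 at 12 h (edgeR adjusted p = 0.025), a call that ended without replicate a or b of 0 h or of 12 h, where the adjusted p reached 0.063. Against 0 h it was -0.30 ± 0.16 at 24 h (edgeR adjusted p = 0.15) and -0.38 ± 0.16 at 48 h (edgeR adjusted p = 0.064). The SE is shared by all times and so includes the wide spread at 6 h. The missing calls at 24 and 48 h therefore do not show that the gene was unchanged. Against 6 h it fell by 0.76 ± 0.16 at 12 h (edgeR adjusted p = 0.0020), and by 0.60 ± 0.16 at 24 h (edgeR adjusted p = 0.010), the latter by 0.39 without replicate c of 6 h. It fell by 0.69 ± 0.16 at 48 h (edgeR adjusted p = 0.0041). In fits of only the 6 libraries compared, these 3 falls from 6 h had adjusted p = 0.050, 0.091 and 0.056.

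NO26G01460, a DGAT2-type gene, was lower late in the series. It stood at 101, 92.7 and 97.7 CPM at 0 h, at 111, 102 and 93.6 CPM at 6 h, and at 97.8, 74.8 and 89.7 CPM at 12 h. These 3 times overlapped. It then dropped to 64.6, 71.9 and 66.2 CPM at 24 h and to 73.6, 67.4 and 70.6 CPM at 48 h, below every earlier library. It fell by 0.52 ± 0.10 at 24 h (edgeR adjusted p = 7.8e-04) and by 0.46 ± 0.10 at 48 h (edgeR adjusted p = 0.0016) on the log2 scale, against 0 h. Against 12 h it fell by 0.37 ± 0.10 at 24 h (edgeR adjusted p = 0.0057) and by 0.31 ± 0.10 at 48 h (edgeR adjusted p = 0.016). The last call ended without replicate a of 12 h or replicate b of 48 h (adjusted p up to 0.066), and also in the fit of only the 6 libraries compared and with limma on FPKM (adjusted p up to 0.068).

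NO22G00630, a DGAT2-type gene, rose early. It stood at 49.7, 50.9 and 53.5 CPM at 0 h and at 87.0, 76.0 and 77.4 CPM at 6 h, above every library of the other times. The rise was 0.64 ± 0.09 on the log2 scale (edgeR adjusted p = 7.2e-05). At 12 h it was back at 60.5, 51.4 and 47.7 CPM, overlapping 0 h, and fell by 0.59 ± 0.09 from 6 h (edgeR adjusted p = 1.7e-04). Its 24 h values of 65.1, 71.1 and 71.5 CPM were again above 0 h, a rise of 0.43 ± 0.09 (edgeR adjusted p = 0.0018). At 48 h it stood at 57.8, 60.9 and 55.6 CPM.

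The other DGAT2-type genes of low count had 1 call between them. NO01G04220 ranged from 42.1 to 58.0 CPM over the 15 libraries. It stood at 50.9, 42.1 and 49.3 CPM at 0 h and at 58.0, 55.6 and 57.7 CPM at 24 h, a rise of 0.27 ± 0.09 on the log2 scale (edgeR adjusted p = 0.024). This was its only call among 10 comparisons, and it ended without replicate b of 0 h or without replicate a or c of 24 h (adjusted p up to 0.099), and in the fit of only the 6 libraries compared (adjusted p = 0.066). NO07G01500, the gene with the conflicting annotation, ranged from 50.0 to 81.1 CPM and was called in none of the 10 comparisons. Its lowest mean was at 6 h (56.5 ± 7.86 CPM) and its highest at 0 h (71.9 ± 4.61 CPM), a difference of -0.35 ± 0.16 on the log2 scale (edgeR adjusted p = 0.094).

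NO01G00990, the DGAT2-type gene with Armadillo repeats, varied more between libraries of 1 time than any other of the 10. It stood at 31.2, 110.5 and 114 CPM at 0 h, at 233, 89.8 and 79.7 CPM at 6 h, and at 175, 164 and 276 CPM at 12 h. The 24 h libraries gave 70.5, 149.9 and 160.2 CPM. Replicate a was the low library at 0 and 24 h and the high one at 6 h. At 48 h all 3 libraries were low, at 51.4, 30.5 and 40.5 CPM, below every library of 6, 12 and 24 h and on both sides of replicate a of 0 h. The SD within times was 0.72 on the log2 scale, against a median of 0.17 over all tested genes, and it was larger than that of 95.3% of the 1710 genes of similar level. Its means differed 5.03-fold between 12 h and 48 h, a fall of 2.33 ± 0.56 on the log2 scale (edgeR adjusted p = 0.0037). Against 6 h it fell by 1.72 ± 0.54 at 48 h (edgeR adjusted p = 0.023), but by 1.06 without replicate a of 6 h (adjusted p = 0.12), and the call also ended without replicate b or c of 48 h. The fall from 24 h to 48 h, 1.64 ± 0.54 (edgeR adjusted p = 0.049), lost its call in 11 of the 15 fits that left out 1 library. No comparison with 0 h was called: the log2 fold changes were 1.27 ± 0.54 at 12 h (edgeR adjusted p = 0.056) and -1.06 ± 0.54 at 48 h (edgeR adjusted p = 0.12).

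NO13G01310, the PDAT, fell and partly recovered with little spread. It stood at 368, 372 and 389.9 CPM at 0 h, at 265, 254 and 281 CPM at 6 h, and at 189.9, 203 and 165 CPM at 12 h. The libraries of these 3 times did not overlap. It fell by 0.50 ± 0.07 at 6 h (edgeR adjusted p = 7.2e-05) and by 1.02 ± 0.07 at 12 h (edgeR adjusted p = 8.2e-08) on the log2 scale, against 0 h. On the FPKM scale the fall at 6 h was 0.31 (limma adjusted p = 0.0098). It rose again to 291, 279.6 and 289.6 CPM at 24 h and to 306, 304 and 317 CPM at 48 h, between 12 h and 0 h. Its rise from 12 h was 0.63 ± 0.07 at 24 h (edgeR adjusted p = 1.1e-05) and 0.73 ± 0.07 at 48 h (edgeR adjusted p = 3.2e-06). Both late times remained below 0 h, with log2 fold changes of -0.39 ± 0.07 (edgeR adjusted p = 5.7e-04) and -0.28 ± 0.07 (edgeR adjusted p = 0.0044). Over the 15 libraries the log2 CPM of the PDAT and that of NO19G01680 had a Pearson r of 0.92, the highest of any pair of the 10, as a description of libraries that share their times. The next pair was NO19G00260 and NO26G01460, both low at 24 h, with an r of 0.75. The lowest was that of NO19G00260 and NO10G04120, at -0.64, which stood at their lowest and highest levels at 24 h.

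Set against 0 h, falls outnumbered rises at each time, as they did narrowly among all tested genes at 6 and 12 h. At 6 h, 1 of the 10 genes rose and 3 fell, where 24.7% of all tested genes rose and 25.7% fell. At 12 h none rose and 4 fell, against 32.1% and 32.7% of all genes. At 24 h 3 rose and 4 fell, against 25.2% and 20.8%. At 48 h none rose and 4 fell, against 26.3% and 23.0%. The median log2 fold changes of the 10 genes were -0.02, -0.19, -0.19 and -0.27 at 6, 12, 24 and 48 h, beside -0.03, -0.04, 0.03 and 0.01 over all tested genes. These 4 comparisons share the 0 h libraries. With 10 genes, 1 call moves such a share by 10 percentage points. The calls of NO08G03480 at 12 h, NO01G04220 at 24 h and NO19G00260 at 48 h ended in some fits that left out 1 library.

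**Figure D3:**
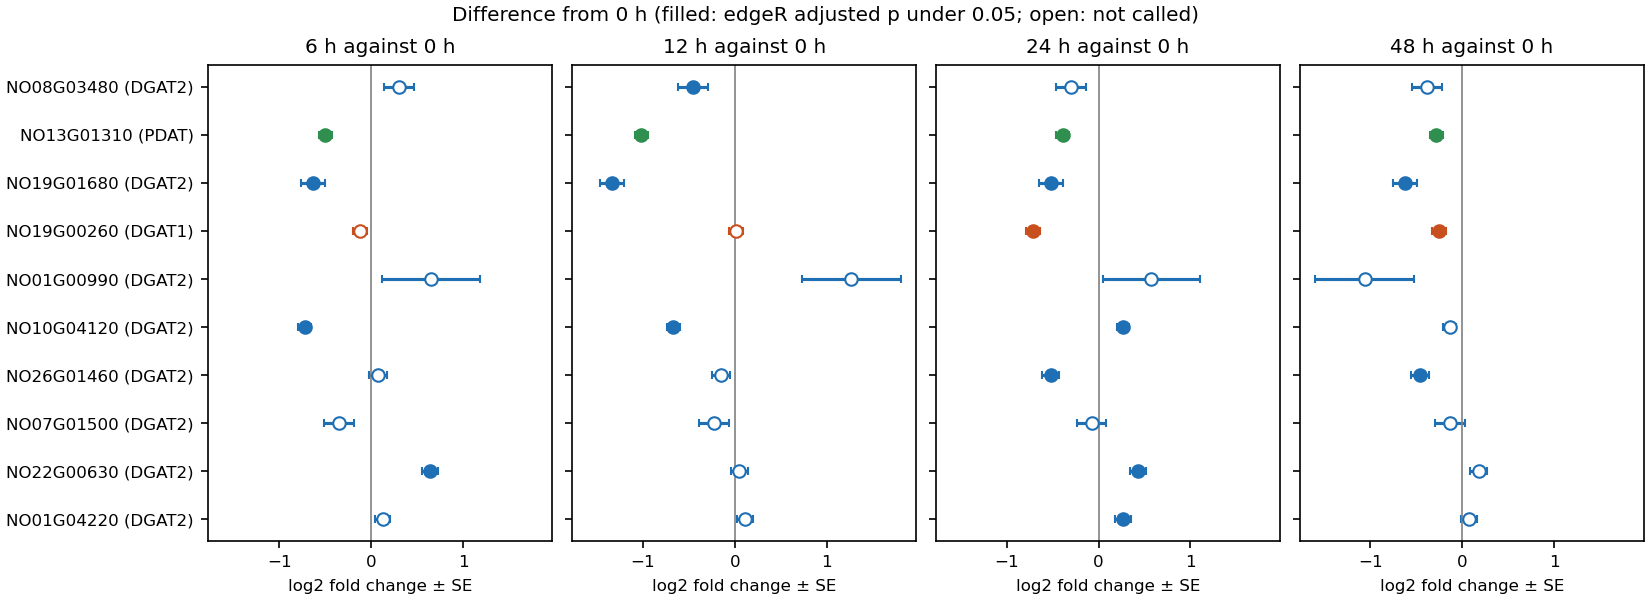
Log2 fold change ± SE (horizontal axis) of each gene at 6, 12, 24 and 48 h against 0 h, from edgeR over 15 libraries; filled points passed an adjusted p of 0.05, and colours mark the DGAT1, DGAT2 and PDAT types. No filled point lies to the right of 0 at 12 h or 48 h, and the widest error bars are those of NO01G00990.

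Between later times the genes moved in both directions. From 6 h to 12 h none rose and 4 fell, where 23.5% of all tested genes rose and 23.3% fell. From 6 h to 24 h 1 rose and 3 fell (20.6% and 18.4% of all genes), and from 6 h to 48 h 2 rose and 4 fell (24.5% and 20.5%). From 12 h to 24 h 4 rose, NO19G01680, NO13G01310, NO10G04120 and NO22G00630, and 2 fell, NO19G00260 and NO26G01460, against 27.2% and 26.6% of all genes. From 12 h to 48 h 3 rose and 3 fell (26.6% and 26.2%). From 24 h to 48 h 1 rose and 2 fell (12.3% and 10.4%). The rise in that last step was the DGAT1-type gene, and the falls were NO10G04120 and NO01G00990. The highest mean level lay at 0 h in 3 genes, 6 h in 3, 12 h in 2, 24 h in 2 and 48 h in none.

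Levels can be compared between genes only per length, so FPKM was used for that, with the reservation on length given for NO19G01680. NO08G03480 was the most abundant of the 10 at every time, with a mean over the 15 libraries of 113 FPKM, higher than that of 94.6% of all genes. Next came NO19G01680 with 54.7 FPKM and NO01G04220 with 37.0 FPKM. The PDAT and the DGAT1-type gene followed with 33.0 FPKM each, and the lowest was NO22G00630 with 14.9 FPKM. NO01G04220, last by counts, thus ranked higher per length, though its place shifted with time: at 0 h its 32.4 ± 3.38 FPKM lay below the PDAT (41.5 ± 1.21) and the DGAT1-type gene (36.0 ± 0.517). NO08G03480 alone made up 30.6% ± 2.46 of the summed FPKM of the 10 genes at 0 h, 36.8% ± 9.15 at 6 h, 28.4% ± 0.421 at 12 h, 27.3% ± 1.06 at 24 h and 27.9% ± 1.41 at 48 h (SD, n = 3). The 8 DGAT2-type genes together made up 80.8% ± 0.489 at 0 h, 84.0% ± 1.11 at 6 h, 81.0% ± 0.967 at 12 h and 84.5% ± 0.752 at 24 h. At 48 h their mean share was 79.9%, with libraries between 78.2% and 81.2%.

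The summed FPKM of the 10 genes was lowest at 12 h. It was 409, 398 and 403 at 0 h and 424, 439.8 and 465 at 6 h. At 12 h the sum was 313, 301 and 298, below every library of 0, 6 and 24 h. It came to 357, 392 and 364 at 24 h, then to 302, 355 and 338 at 48 h, which overlapped 12 h. Without NO08G03480, the sum of the other 9 genes was 273, 278 and 289 at 0 h. That sum was 310, 270 and 256 at 6 h, overlapping 0 h, and 226, 216 and 212 at 12 h. FPKM was not rescaled between libraries. Its median log2 fold change over all tested genes was 0.15 at 6 h and -0.04 at 12 h, both against 0 h. It was -0.20 at 12 h against 6 h and 0.13 at 24 h against 12 h. The ratio of the DGAT1-type gene NO19G00260 to NO19G01680 in FPKM was 0.489, 0.486 and 0.503 at 0 h. At 6 h it was 0.622, 0.758 and 0.603, above every 0 h library. At 12 h it was 1.04, 1.13 and 1.40, so the order of the pair turned in all 3 libraries of 12 h. The pair gave 0.451, 0.345 and 0.481 at 24 h, then 0.913, 0.435 and 0.507 at 48 h. The count per FPKM varied 1.44-fold between libraries for NO19G01680 and 1.14-fold for NO19G00260, so the reservation on length holds for these ratios too.

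**Figure D4:**
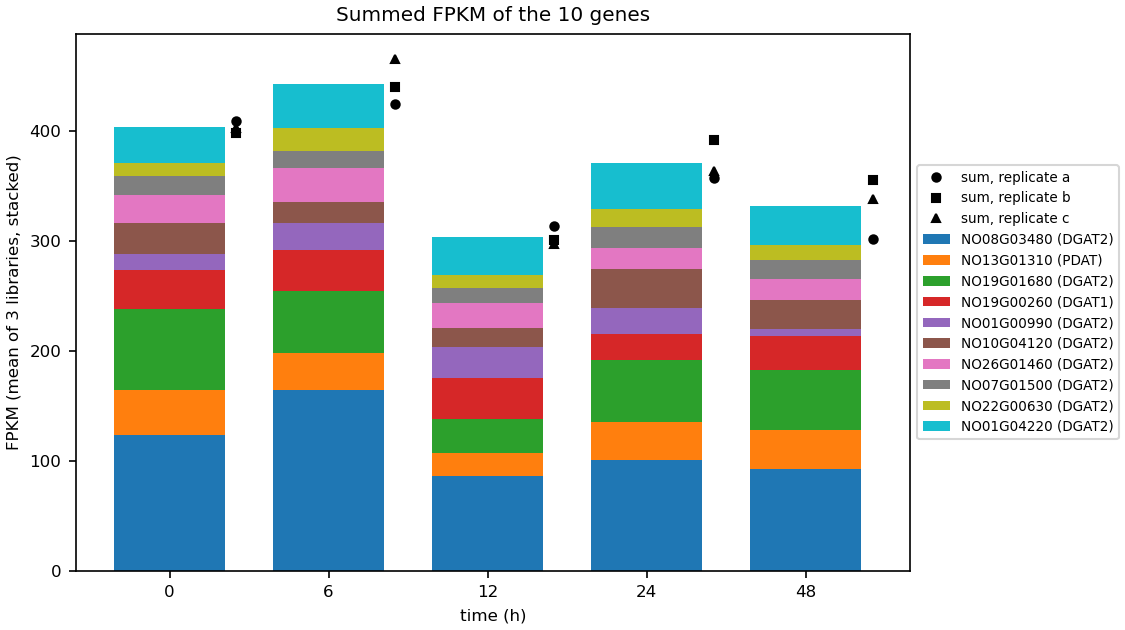
Mean FPKM (3 libraries) of the 10 genes stacked by time (h, not to scale), with the sum in each library as points. The bar of 12 h is the shortest, and NO08G03480 is the largest block at every time.

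Of the genes ranked after the first 10 by total count, the next had 3851 counts against 15432 for NO01G04220, the last one taken. NO07G01760, a DGAT2-type gene, had 10.2 ± 1.86 CPM at 0 h and reached 17.6 ± 0.635 CPM by 48 h. That was a rise of 0.80 ± 0.21 on the log2 scale (edgeR adjusted p = 0.0083), unlike the 10 genes taken, of which none rose at 48 h against 0 h. NO14G03060, annotated as a DGAT1 with a membrane-bound O-acyltransferase domain, had 919 counts in all. It stood at 4.70 ± 0.539 CPM at 0 h, 1.42 ± 0.387 CPM at 12 h and 4.74 ± 1.74 CPM at 48 h. Its log2 fold change at 12 h against 0 h was -1.72 ± 0.33 (edgeR adjusted p = 6.2e-04). NO01G01000, a DGAT2-type gene, had 2 counts, both in replicate a of 24 h, and was not tested. Near-identical copies could share reads, and no source used here says how the counter split such reads.

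For each of the 10 genes, the annotated gene most like it was sought among 4445 tested genes by Pearson r of log2 CPM over the 15 libraries. NO13G01310 was closest to an ABC transporter of the G family (NO09G03370, r = 0.98), and NO10G04120 to a valine--tRNA ligase (NO05G00270, r = 0.98) and to a chloroplast chaperonin subunit (NO07G00560, r = 0.98). NO19G01680 was closest to the small subunit of 3-isopropylmalate dehydratase (NO28G01560, r = 0.97), an enzyme of leucine synthesis. NO26G01460 was closest to NO06G02540 (r = 0.95), which KEGG named a tyrosine aminotransferase and Swiss-Prot an S-alkyl-thiohydroximate lyase. NO19G00260 was closest to a sphingolipid desaturase (NO02G05780, r = 0.94). NO22G00630 was closest to a phosphoinositide phosphatase (NO18G01360, r = 0.90). For NO08G03480 a seipin (NO19G00580, r = 0.858), a protein of lipid droplet formation in yeast, animals and plants, was closest. It was nearly level with a COP9 signalosome subunit (NO21G02350, r = 0.856). NO01G00990 was closest to an ADP-ribosylation factor (NO03G02850, r = 0.86). For NO01G04220 the closest was a plastid ribosomal protein (NO07G02020, r = 0.82), and for NO07G01500 a quinolinate synthase (NO30G00630, r = 0.78). Libraries of 1 time share their condition, so high values of r are common and are given as a description.

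Genes that make or use the substrates of these enzymes moved in both directions. They were matched by annotation to 9 lists with 74 genes, 69 of them tested and 8 in several lists, and counts refer to 12 h against 0 h, where 32.1% of all tested genes rose and 32.7% fell. Glycerol-3-phosphate and lysophosphatidate acyltransferases add the first fatty acids to the glycerol backbone, and 5 of 11 fell and none rose (median log2 fold change -0.53). The glycerol-3-phosphate acyltransferase NO12G00610 fell from 197 ± 5.97 to 86.9 ± 1.59 CPM (-1.18 ± 0.07 on the log2 scale, edgeR adjusted p = 3.4e-08), and stayed lower at 24 and 48 h. Of 7 genes of glycerol-3-phosphate supply, 2 rose and 3 fell (median -0.63), among them the dehydrogenases NO20G00310 (0.81 ± 0.08) and NO17G02030 (-0.73 ± 0.08). The pattern for glycerol kinase also took 2 diacylglycerol kinases, of which NO10G00120 fell by 0.97 ± 0.08.

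Phosphatidate phosphatases make the diacylglycerol itself, and of 8 genes in that list 2 rose and 2 fell (median -0.05). The PAH2-type gene NO05G01140 was not called at 12 h (-0.12 ± 0.06) and rose at 24 h by 0.41 ± 0.06 (edgeR adjusted p = 2.8e-04) and at 48 h by 0.25 ± 0.06 (edgeR adjusted p = 0.0067). The lipid phosphate phosphatase NO15G03400 rose by 0.75 ± 0.13 at 12 h (edgeR adjusted p = 2.8e-04). Both falls in this list were genes that the word lipin brought in and that are no phosphatases, the cardiolipin synthase NO03G02110 (-0.72 ± 0.07) and NO12G03180 (-0.73 ± 0.25), which KEGG named a lysocardiolipin acyltransferase. Of 5 lysophospholipid acyltransferases, which return fatty acids to phospholipids, 1 rose and 2 fell (median 0.02). NO08G04210 of that list fell by 1.83 ± 0.12 at 6 h (edgeR adjusted p = 1.7e-07) and by 1.12 ± 0.11 at 12 h (edgeR adjusted p = 3.0e-06).

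Acyl-CoA is the second substrate of DGAT1 and DGAT2. Of 14 genes of acyl-CoA supply, 3 rose and 8 fell at 12 h (median -0.56). The acyl-activating enzyme NO18G00930 fell from 555 ± 13.9 to 150.4 ± 7.21 CPM (-1.88 ± 0.08 on the log2 scale, edgeR adjusted p = 3.0e-09). The long-chain acyl-CoA synthetase NO25G00730 fell from 343 ± 115 to 4.95 ± 2.26 CPM (-6.10 ± 0.63 on the log2 scale, edgeR adjusted p = 3.0e-06). Another, NO24G00960, rose by 0.97 ± 0.12 at 12 h (edgeR adjusted p = 1.9e-05) and by 1.31 ± 0.12 at 48 h (edgeR adjusted p = 5.1e-06). The acyl-CoA-binding gene NO23G00210 rose from 1.17 ± 0.116 to 14.6 ± 3.71 CPM (3.63 ± 0.33, edgeR adjusted p = 9.6e-07).

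Genes that draw diacylglycerol into membrane lipids split, with 4 of 10 rising and 3 falling at 12 h (median -0.01). The sulfolipid synthases NO15G02830 and NO01G02630, which put a sulfur head group on diacylglycerol, rose by 3.84 ± 0.41 and 3.08 ± 0.25 (edgeR adjusted p = 4.0e-06 and 4.3e-07). Betaine lipid synthase NO05G01490 fell by 1.12 ± 0.08 (edgeR adjusted p = 8.1e-08). Phospholipases act on phospholipids and yield phosphatidate, lysophospholipids or diacylglycerol. Of 18 genes whose annotation matched a phospholipase or the word glycerophosphodiester, 7 rose and 7 fell (median 0.01). Phospholipase D zeta 2 (NO06G04260) rose by 3.75 ± 0.23 (edgeR adjusted p = 3.2e-08), and secretory phospholipase A2 (NO04G01800) by 2.92 ± 0.17 (edgeR adjusted p = 2.3e-08). The single other acyltransferase of neutral lipids, the lecithin-cholesterol acyltransferase-like NO18G01100, rose by 0.62 ± 0.12 (edgeR adjusted p = 6.6e-04).

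Of 5 genes of lipases and lipid droplets, 3 rose and 1 fell at 12 h (median 0.70). The 2 SDP1-type lipases, which release fatty acids from stored oil in plants, moved apart. NO10G00490 fell by 0.88 ± 0.07 (edgeR adjusted p = 2.3e-07), and NO14G01540 rose by 0.82 ± 0.11 (edgeR adjusted p = 3.5e-05). NO01G01510, annotated as triacylglycerol lipase 2, rose by 1.60 ± 0.19 at 12 h (edgeR adjusted p = 1.3e-05) and by 1.35 ± 0.19 at 48 h (edgeR adjusted p = 1.1e-04).

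At the other times the lists were counted in the same way against 0 h, where the share of all tested genes that rose was 24.7% at 6 h, 25.2% at 24 h and 26.3% at 48 h, and the share that fell was 25.7%, 20.8% and 23.0%. Of the 11 glycerol-3-phosphate and lysophosphatidate acyltransferases none rose at any time, while 3 fell at 6 h and 4 at each of 24 and 48 h. Of the 14 acyl-CoA supply genes, 2 rose and 4 fell at 6 h, and 4 rose and 4 fell at 24 h and at 48 h alike. Of the 5 lipase and lipid droplet genes, 3 rose and 1 fell at 6 h, and 1 rose and 2 fell at 24 h and at 48 h. Of the 10 genes of diacylglycerol use, 3 rose and 5 fell at 6 h, 4 rose and 3 fell at 24 h, and 3 rose and 3 fell at 48 h.

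**Figure D5:**
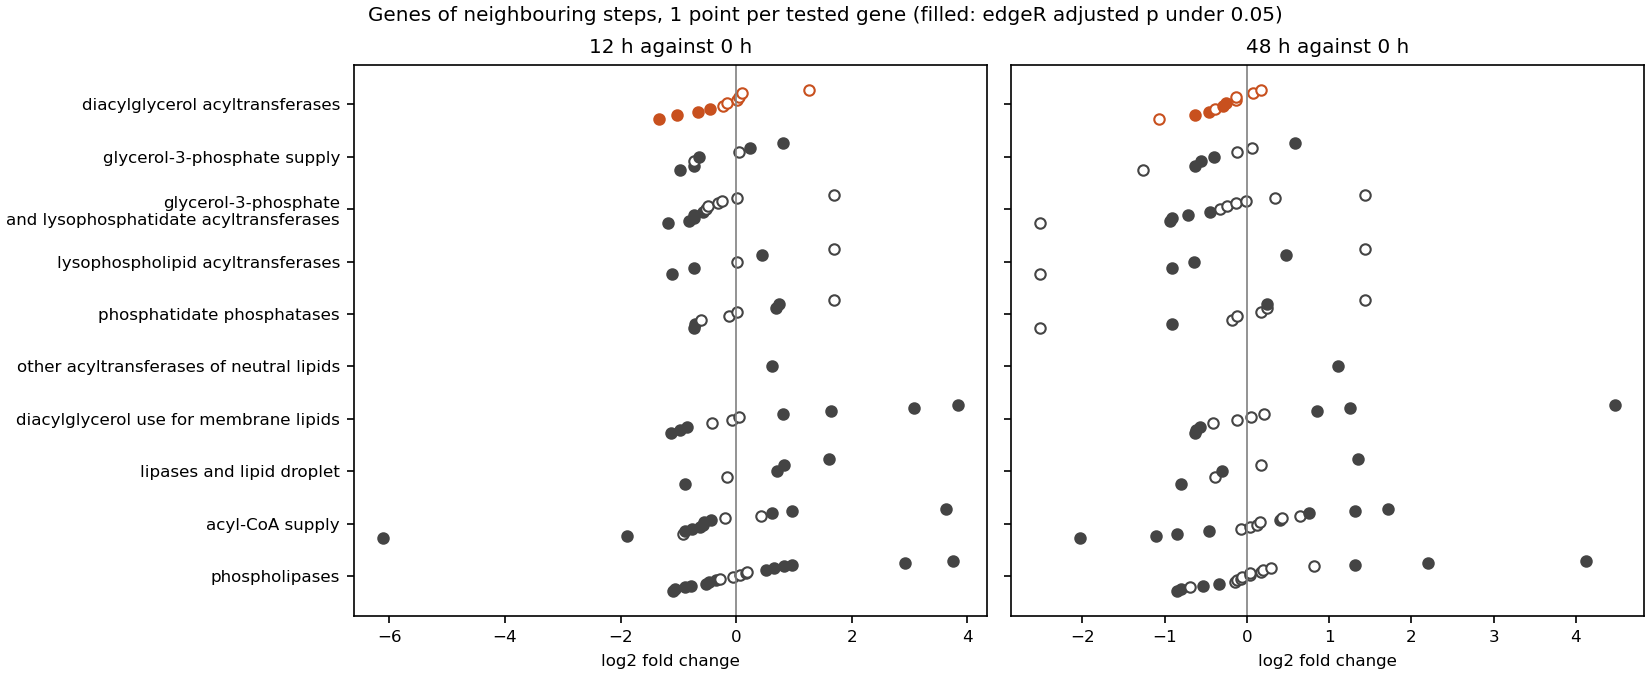
Log2 fold change (horizontal axis) at 12 h and 48 h against 0 h of the 10 diacylglycerol acyltransferases and of each tested gene in the 9 lists of neighbouring steps, 1 point per gene (filled, edgeR adjusted p under 0.05; a gene in several lists is drawn in each). The widest spread at 12 h is in acyl-CoA supply, from -6.10 to 3.63, and the diacylglycerol acyltransferases lie between -1.34 and 1.27.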

How the data were processed

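RNA-seq of 15 libraries was analysed from a table whose columns are, per the file headers, counts and FPKM for every gene. The deposited values are expected counts in whole numbers: when 749 low ones were recomputed through FPKM, 91.2% came out less than 1 below the listed count and 13.9% were whole within 0.05, so they were read as estimates rounded up by the authors. The FPKM values were scaled by the authors to length and depth. HISAT2 is named in the submitters' processing notes, without a version, while the counter, its settings, the genome build and the annotation are not given in the sources used.

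Counts were tested with edgeR 4.0.16 in R 4.3.3 (filterByExpr by group, TMM scaling, 5 group means, quasi-likelihood F-test, two-sided). The filter kept 9321 of 10434 genes, all 10 genes described among them. All 10 pairs of times and an F-test over the 5 times were fitted, and p-values were adjusted over the tested genes of each comparison. Dividing the size of a log2 fold change by the root of its F statistic gave its SE. In simulated data with 200 genes changed 4-fold at 12 h, 85% were recovered with 7 false calls for 12 h against 0 h. In the data 32.1% of tested genes rose and 32.7% fell in that comparison, far more than in the simulation. These figures therefore do not give the recovery or false calls of the results here, and say nothing of changes smaller than 4-fold. The limit that a 0 allows is 3 counts, equal to 0.114 to 0.180 CPM (counting error only). Figures were drawn with matplotlib 3.10.9 in Python 3.11.15.

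No 2 libraries of a time were copies (chi-square per degree of freedom 55.9 to 128.4). Alternatives were other scaling factors, DESeq2 1.42.0, 2 other filters, the letter as a block, fits of 6 libraries, limma 3.58.1 on FPKM, and leaving out each library. A median-centred FPKM fit was added after the data were seen. The genes, the lists of neighbouring steps and their tests were chosen with earlier results of these data known, and the named genes of each list are the 2 largest rises and falls among those called at 12 h and at 48 h, of which a selection is given, with 1 gene (NO05G01140) named for 48 h. The 3 genes most like each of the 10 were found among annotated genes whose log2 CPM averaged 3 or more. Of 160 genes of the reference, 0 could be matched by ID, so no sequence is shown.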

Additional observations from a re-analysis of the deposited data

How the results depend on the processing

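Of the 48 called differences of the 10 genes among 100 tested, 41 stayed called in all 15 fits that left out 1 library, 37 under all 8 other settings, the median-centred FPKM fit not counted, and 34 under all of both. The median-centred fit, chosen after seeing the data, ended 1 of the 48 calls, that of NO19G01680 at 24 h against 0 h (adjusted p = 0.061). No called difference changed sign. Calls were also gained: 9 uncalled differences became called with limma on FPKM, 5 with DESeq2, 2 with upper-quartile factors and 2 in fits of 6 libraries. With 1 library left out, the most gained was 5, without replicate a of 12 h and without replicate c of 12 h. The number of the 10 genes called stayed within 1.5 times in each comparison. The log2 fold change of NO19G00260 at 12 h against 0 h (0.01) changed sign, uncalled, with upper-quartile factors (-0.054), without the filter on low counts (-0.0041) and with median-centred FPKM (-0.058), and lay between -0.0763 and 0.0718 with 1 library left out. The cause was not tested. With limma on FPKM, which was not rescaled between libraries, the median of all tested genes at 6 h against 0 h moved from -0.03 to 0.15, the genes that fell from 2394 to 1492 and those that rose from 2298 to 3017. The split of all genes likewise moved to 2737 higher and 1391 lower at 24 h against 0 h, and, in comparisons with 6 h, to 1584 and 3178 (12 h), 1461 and 2055 (24 h) and 1632 and 2527 (48 h).

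The letters gave no sign of pairing the libraries, with correlations of deviations between -0.088 and 0.077 for the same letter, and 5 of 15 libraries closest to their own. With 3 libraries per time, this cannot show whether a letter marks the same culture. With the letter as a replicate block, 1 call ended, that of NO01G00990 at 48 h against 24 h (adjusted p = 0.085), and without the filter on low counts the same call ended. In fits of only the 6 libraries compared, 7 calls ended, among them NO19G00260 at 48 h against 12 h (adjusted p = 0.051) and NO13G01310 at 48 h against 6 h, which rose by 0.21 in the fit of all libraries and by 0.08 on the FPKM scale (adjusted p = 0.47). The 3 libraries per time limit the smaller differences, and counts of these genes were high enough that counting error was not the limit.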

Other observations

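The ID just before NO01G00990, NO01G00980, had 1 count in replicate c of 12 h, the library in which NO01G00990 was highest (4421 counts), and 1027 and 857 counts in replicates a and b of that time. In the other 12 libraries NO01G00980 had 251 to 755 counts. NO01G00980 was looked at after the values of NO01G00990 were seen, because the sources used here do not say how reads of adjoining genes were divided, and its part in the spread of NO01G00990 was not tested. The other gene whose quotient of count and FPKM varied most was NO07G01500, with a 1.38-fold range, followed by NO01G00990 with 1.31, NO08G03480 with 1.17 and NO19G00260 with 1.14. For the other 5 of the 10 genes it varied by less than 1.01-fold, and 26.4% of the 8522 genes checked exceeded 1.1.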
